A study of Mus musculus with 6 samples.

Results

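Replication-dependent core histone genes encode the H2A, H2B, H3 and H4 proteins that package newly made DNA. The genes were taken as the array probes whose annotated symbol begins H2ac, H2bc, H3c or H4c followed by a number. The platform held 50 such probes for 45 genes, among 25696 probes in all. Of these, 31 probes for 30 genes were detected, with the scanner software giving a detection p under 0.05 on 3 or more of the 6 arrays, and entered a test of 7579 detected genes in all.

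Heart RNA came from 6 female C57BL/6J mice, aged 20 weeks at harvest, with 1 Illumina bead array per mouse. The 3 controls were Nelf-b f/f, homozygous for a floxed allele of Nelfb, and the 3 knockouts were Nelf-b f/f; CreER, which adds a tamoxifen-activated Cre recombinase. Every mouse received tamoxifen at 8 weeks, ate regular chow and was fasted for 5 hours. The controls lacked CreER, so an effect of the recombinase and an effect of the deletion cannot be told apart, and the labels name no promoter for CreER.

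In dividing cells the core histone genes are switched on at S phase and sit in clusters, many as H2A and H2B genes facing away from each other across a short shared promoter. Their messages normally end in a stem-loop, cut with the help of the stem-loop binding protein and the U7 small nuclear RNA, and carry no poly(A) tail. NELF, the negative elongation factor, pauses RNA polymerase II near promoters, and work in human cell lines has also linked it, with the nuclear cap-binding complex, to the cutting of histone messages. The labelling kit named in the labels starts from the poly(A) tail with an oligo(dT) primer. A higher signal can therefore mean more histone message or a larger polyadenylated share of it, and these arrays cannot tell them apart. In RNA of a whole heart, fewer cells of a type and less RNA per cell likewise cannot be told apart.

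Mean signal per array before normalization ran from 169.8 to 310.3, and 38.8% to 43.8% of probes were detected. One deposited table, of unnormalized signals, exchanges the 2 group names in its headers relative to the sample records, and every sign here follows the records. By these, Nelfb signal on the log2 scale came to 7.01, 7.08 and 7.07 on the control arrays and 5.41, 5.46 and 5.46 on the knockout arrays. The knockout arrays lay below every control array, with a log2 difference of -1.61 ± 0.13 SE (limma, adjusted p = 0.000183). Another Nelfb probe gave -0.94, and the difference was -0.92 in the value table, -1.28 as a mean of probes and -0.73 with no background correction, called and negative each time. Were those headers right, this sign and all others would turn.

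The promoter sequences show how some of the tested H2A and H2B genes are arranged. Whether this arrangement bears on their differences was not tested. In RefSeq, 4 pairs of tested H2A and H2B genes on chromosome 13 are transcribed away from each other, so both genes of a pair share the bases between their starts. Those bases are printed on the plus strand of GRCm38.p6, with the H2A gene on the left end for H2ac15, H2ac12 and H2ac11 and on the right end for H2ac7. Capitals mark a match on either strand to 1 of 3 promoter motifs: the CCAAT box (CCAAT), the TATA box (TATAAA) or the octamer (ATGCAAAT).
H2ac15 and H2bc15: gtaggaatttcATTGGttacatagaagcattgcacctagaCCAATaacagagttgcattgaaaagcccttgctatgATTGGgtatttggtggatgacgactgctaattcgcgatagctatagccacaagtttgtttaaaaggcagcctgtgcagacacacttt
H2ac12 and H2bc12: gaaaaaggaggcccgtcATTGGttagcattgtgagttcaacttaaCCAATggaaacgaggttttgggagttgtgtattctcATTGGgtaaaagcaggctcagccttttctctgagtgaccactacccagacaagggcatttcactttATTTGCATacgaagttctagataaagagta
H2ac11 and H2bc11: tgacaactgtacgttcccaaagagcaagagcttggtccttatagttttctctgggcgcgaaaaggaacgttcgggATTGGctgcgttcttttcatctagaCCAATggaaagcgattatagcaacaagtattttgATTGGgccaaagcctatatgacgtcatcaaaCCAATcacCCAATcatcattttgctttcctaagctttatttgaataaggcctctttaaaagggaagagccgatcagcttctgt
H2ac7 and H2bc7: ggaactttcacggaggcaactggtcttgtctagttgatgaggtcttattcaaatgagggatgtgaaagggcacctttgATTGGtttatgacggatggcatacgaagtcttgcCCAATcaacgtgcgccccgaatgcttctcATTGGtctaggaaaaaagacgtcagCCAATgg
These stretches lie at chr13:21753913-21754075, chr13:22035644-22035820, chr13:22042950-22043197 and chr13:23574208-23574380, in that order.

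The next set is the 250 bases before the start of H2ac18 and H2ac21, both H2A genes of chromosome 3, and of H3c6 and H4c11, which had the largest difference of their class. Each is printed on the strand of its gene, with the same capitals.
H2ac18: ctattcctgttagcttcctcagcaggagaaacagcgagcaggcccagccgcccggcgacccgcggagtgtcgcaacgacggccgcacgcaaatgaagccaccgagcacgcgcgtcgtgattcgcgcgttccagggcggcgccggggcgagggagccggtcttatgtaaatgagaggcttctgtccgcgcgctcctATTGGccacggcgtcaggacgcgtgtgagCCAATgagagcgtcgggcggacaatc
H2ac21: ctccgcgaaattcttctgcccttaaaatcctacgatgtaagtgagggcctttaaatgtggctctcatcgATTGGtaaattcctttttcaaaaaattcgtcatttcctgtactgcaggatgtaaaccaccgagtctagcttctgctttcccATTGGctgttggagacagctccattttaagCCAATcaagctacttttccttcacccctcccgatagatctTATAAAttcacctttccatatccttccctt
H3c6: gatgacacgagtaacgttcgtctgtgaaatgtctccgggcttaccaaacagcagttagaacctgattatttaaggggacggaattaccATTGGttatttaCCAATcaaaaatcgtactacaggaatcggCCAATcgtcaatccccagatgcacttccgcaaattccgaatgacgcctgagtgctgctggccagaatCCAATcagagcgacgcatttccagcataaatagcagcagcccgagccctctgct
H4c11: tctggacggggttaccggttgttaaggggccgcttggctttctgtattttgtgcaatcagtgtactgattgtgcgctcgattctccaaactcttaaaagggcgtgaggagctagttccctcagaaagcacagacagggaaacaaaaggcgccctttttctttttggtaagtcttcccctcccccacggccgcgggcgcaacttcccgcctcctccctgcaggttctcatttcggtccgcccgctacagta
The positions are chr3:96245247-96245496 on the plus strand for H2ac18 and chr3:96219635-96219884 on the plus strand for H2ac21. They are chr13:23562386-23562635 on the minus strand for H3c6 and chr13:21734784-21735033 on the plus strand for H4c11.

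Histone genes of every class had members with higher signal in the knockout hearts, and H2A was the only class with calls in both directions. H3c7 was detected on no control array and entered the test through the knockout arrays alone, so it is left out of the counts that follow. Of the other 29 genes, 18 rose, or 62.1%, where 2.24% of all genes tested rose and 4.25% were called in either direction. H2ac12 was the 1 histone gene that fell, where 2.01% of all genes fell. The groups did not overlap for 21 of the 29, or 72.4%, against 24.9% of all genes. The 18 risers had folds from 1.44 to 3.85 with a median of 2.11, and 11 of them rose at least 2-fold. The median log2 difference was 0.91 for the 29 genes and 0.01 for all 7579. How far histone probes of any class bind transcripts of other histone genes was not tested. The 29 genes may therefore not be separate measurements. The 27 histone genes detected on every array were also tested within the 6250 genes detected on every array, of which 344 were called. Of the 27, 19 rose and 1 fell, with H2bc4 among those that rose. With each array scaled to its median in place of quantile normalization, 9 histone genes rose and none fell (limma, 54 genes called in all). Under that scaling the fit gave every tested histone gene the same SE, 0.31, against 0.13 to 0.25 with quantile normalization. Calls lost with median scaling are to be read beside that larger SE.

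**Figure D1:**
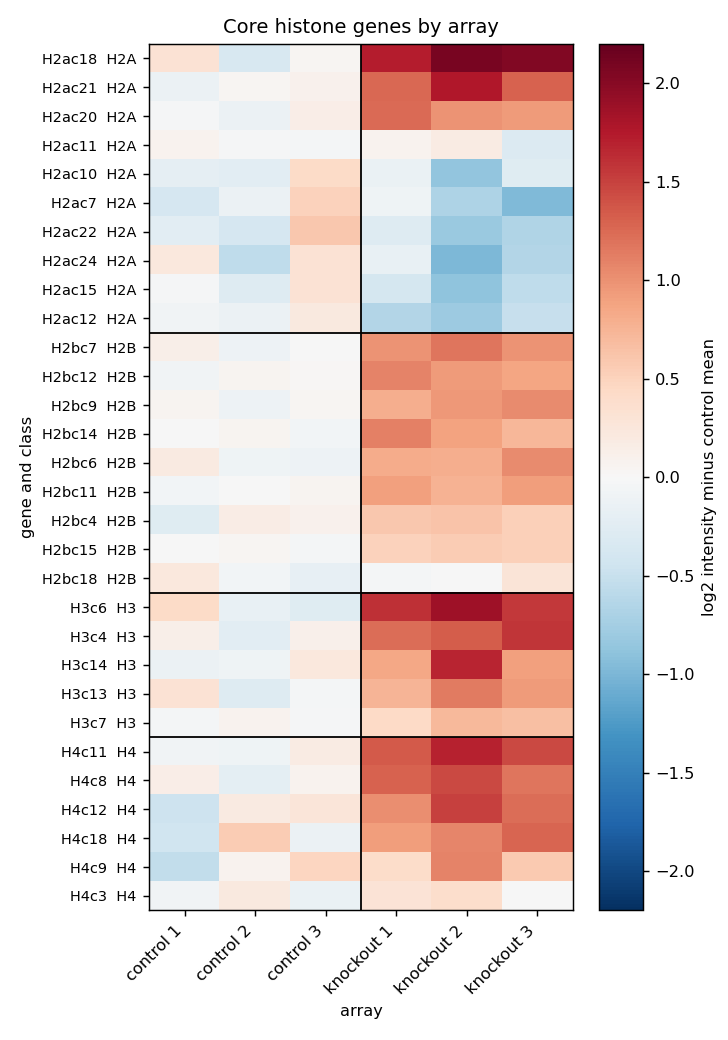
Log2 normalized intensity minus the control mean for the 30 tested histone genes (rows, ordered by class and by difference) on the 6 arrays (columns); red is higher and blue lower. H2B, H3 and H4 genes are red on the knockout arrays, except H2bc18 and H4c3, which are pale there. The H2A block splits into 3 red rows and 7 pale or blue rows.

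Histone H3, whose tail carries many of the marks that regulate chromatin, had 4 genes detected in both groups, all of which rose, with a median log2 difference of 1.26. H3c6 read 5.64, 5.05 and 4.95 on the control arrays and 6.82, 7.08 and 6.77 on the knockout arrays, on the log2 scale. Every knockout array was more than 1 log2 unit above every control array, a difference of 1.68 ± 0.19 SE or 3.21-fold (limma, adjusted p = 0.000931). H3c4 read 4.96, 4.61 and 4.94 on the control arrays and 6.07, 6.17 and 6.41 on the knockout arrays. Its control values lay close to the lowest detected signal of an array, which was 4.54 to 4.68, and the difference was 1.38 ± 0.15 SE (adjusted p = 0.000931).

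Both H3 genes tested on chromosome 3, H3c14 and H3c13, rose. H3c14 read 6.94, 6.97 and 7.30 on the control arrays and 7.92, 8.74 and 7.97 on the knockout arrays, with knockout array 2 above the rest (1.14 ± 0.21 SE, limma, adjusted p = 0.0155). Its call was lost without control replicate 2 (adjusted p = 0.0546) and with no detection filter (adjusted p = 0.0845). A further H3c14 probe was not detected on any control array and on all 3 knockout arrays, and was at least 1.84-fold higher there; having passed the filter through the knockouts alone, it lends that call no support. H3c13 read 7.99, 7.39 and 7.63 on the control arrays and 8.41, 8.81 and 8.61 on the knockout arrays (0.94 ± 0.18 SE, adjusted p = 0.0164). Its groups did not overlap, and its call was lost without control replicate 2 or 3 or knockout replicate 2 (adjusted p = 0.0643, 0.0656 and 0.0660). It was also lost with median scaling (adjusted p = 0.171) and with no detection filter (adjusted p = 0.0717). H3c7 passed the detection filter through the knockouts alone, at 4.73, 5.00 and 4.95 against 4.24, 4.37 and 4.26 in the controls. It was at least 1.24-fold higher, and no test is given because the filter admitted it on the group where it was high. Just outside the filter, H3c1 was detected on 2 knockout arrays and no control array, with a signal at least 1.37-fold higher and no test.

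Histone H4, which pairs with H3 at the centre of the nucleosome, had 6 genes tested and 4 that rose, all on chromosome 13, with a class median of 1.17. H4c11 read 7.95, 7.92 and 8.19 on the control arrays and 9.38, 9.71 and 9.47 on the knockout arrays. The groups were separated by more than 1 log2 unit, with a difference of 1.50 ± 0.15 SE or 2.82-fold (limma, adjusted p = 0.000699). H4c8 read 9.29, 8.94 and 9.23 on the control arrays and 10.45, 10.60 and 10.34 on the knockout arrays (1.31 ± 0.15 SE, adjusted p = 0.000931). Neither call was lost under any alternative tried. H4c12 read 6.01, 6.66 and 6.73 on the control arrays and 7.49, 7.97 and 7.69 on the knockout arrays (1.25 ± 0.20 SE, adjusted p = 0.00658). That call was lost with no detection filter (adjusted p = 0.0612).

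Of the remaining H4 genes, H4c18 was called. H4c18 read 5.37, 6.36 and 5.68 on the control arrays and 6.73, 6.88 and 7.09 on the knockout arrays (1.09 ± 0.22 SE, limma, adjusted p = 0.0235). The groups did not overlap, but the call was lost without control replicate 3 or knockout replicate 2 or 3 (adjusted p = 0.0905, 0.0654 and 0.0711), with median scaling (0.113) and with no detection filter (0.105). H4c9 read 6.08, 6.70 and 7.09 on the control arrays and 7.03, 7.72 and 7.20 on the knockout arrays, where the groups overlapped (0.70 ± 0.25 SE, adjusted p = 0.142). H4c3 was detected on 1 control and 2 knockout arrays, just inside the filter, with a difference of 0.23 ± 0.16 SE (adjusted p = 0.465).

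Histone H2B, which pairs with H2A on the outer face of the nucleosome, had small spreads within groups. Of 9 genes tested, 7 rose, 2 were not called, and the median was 0.88. The median SD over 3 control arrays was 0.09 for the H2B genes, against 0.32 for the H2A genes, 0.20 for H3 and 0.30 for H4. H2bc7 read 9.34, 9.10 and 9.21 on the control arrays and 10.21, 10.39 and 10.21 on the knockout arrays (1.05 ± 0.14 SE, 2.07-fold, limma, adjusted p = 0.00214). H2bc12 read 7.05, 7.20 and 7.15 on the control arrays and 8.22, 8.07 and 8.00 on the knockout arrays (0.96 ± 0.13 SE, adjusted p = 0.00325). Both had knockout arrays well apart from the controls and nearly equal within each group.

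The other H2B genes of chromosome 13 had differences from 0.53 to 0.93. H2bc9 read 8.56, 8.39 and 8.54 on the control arrays and 9.30, 9.46 and 9.53 on the knockout arrays (0.93 ± 0.14 SE, limma, adjusted p = 0.00372). H2bc11 read 8.70, 8.75 and 8.82 on the control arrays and 9.66, 9.52 and 9.67 on the knockout arrays (0.86 ± 0.13 SE, adjusted p = 0.00499). In each of these genes the lowest knockout array was above the highest control array. H2bc14 had a difference of 0.91, H2bc6 of 0.88 and H2bc15 of 0.53, all called. H2bc15 was called with all arrays (adjusted p = 0.0431), and its call was lost when any array was left out (adjusted p from 0.0540 to 0.138). With median scaling none of the 7 H2B calls held, although the class median was 0.88 there too. The SE of these 7 genes was 0.31 under that scaling, against 0.13 to 0.15 with quantile normalization.

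H2B genes outside the calls were H2bc4 and H2bc18. H2bc4 read 8.74, 9.18 and 9.10 on the control arrays and 9.61, 9.62 and 9.53 on the knockout arrays, with no overlap (0.58 ± 0.15 SE, limma, adjusted p = 0.0539). It was called under 5 alternatives: no background correction (0.0188), the value table (0.00883), an offset of 50 (0.0142), genes detected on all arrays (0.0411) and a trended robust prior (0.00450). H2bc18, the only H2B gene tested on chromosome 3, read 6.23, 5.92 and 5.82 on the control arrays and 5.94, 5.98 and 6.27 on the knockout arrays. Its groups overlapped, with a difference of 0.08 ± 0.16 SE (adjusted p = 0.831), while 5 other histone genes of chromosome 3 rose.

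**Figure D2:**
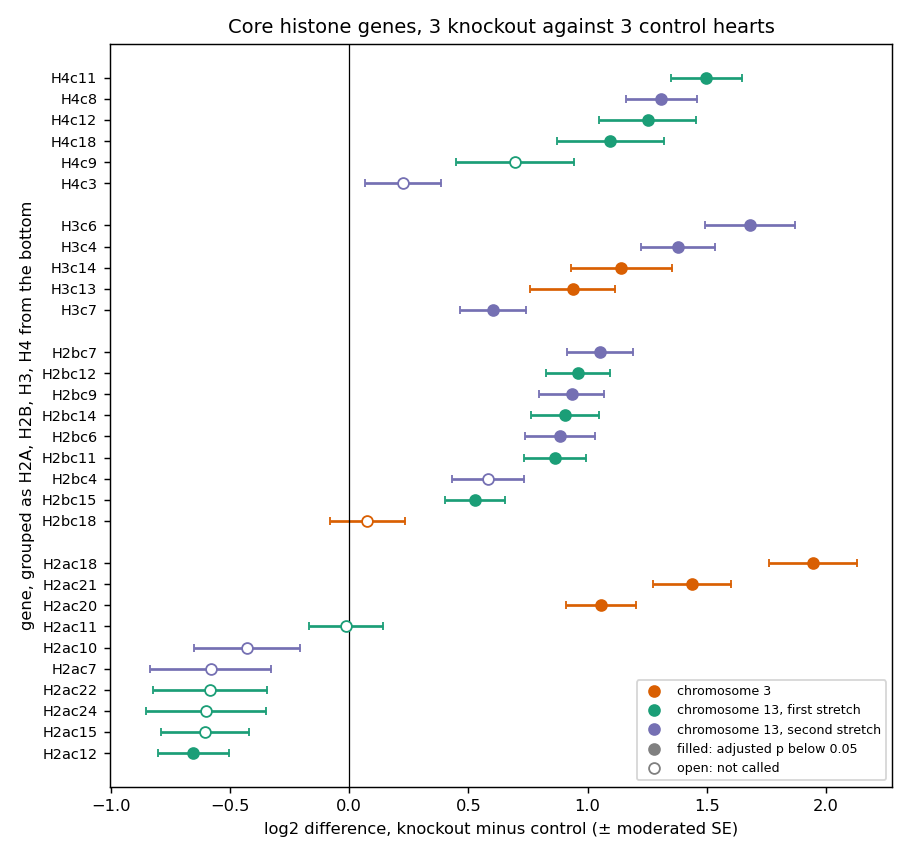
Log2 difference of knockout minus control (horizontal axis) with its moderated SE for the 30 tested histone genes, coloured by gene cluster and filled where the adjusted p was below 0.05 (H3c7, filled, passed the filter through the knockouts alone). The 3 H2A genes of chromosome 3 lie from 1.06 to 1.95 and the 7 H2A genes of chromosome 13 from -0.65 to -0.01.

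The H2A genes split by chromosome. The 3 tested on chromosome 3 rose, with a median log2 difference of 1.44, and of the 7 on chromosome 13 none rose, 1 fell and the median was -0.58. H2ac18 had the largest difference of any histone gene, at 6.38, 5.71 and 6.10 on the control arrays and 7.79, 8.14 and 8.09 on the knockout arrays (1.95 ± 0.18 SE, 3.85-fold, limma, adjusted p = 0.000699). H2ac21 read 5.14, 5.31 and 5.37 on the control arrays and 6.53, 7.04 and 6.57 on the knockout arrays (1.44 ± 0.16 SE, 2.71-fold, adjusted p = 0.000931). H2ac20, its neighbour, read 10.13, 10.03 and 10.31 on the control arrays and 11.40, 11.14 and 11.10 on the knockout arrays (1.06 ± 0.15 SE, 2.08-fold, adjusted p = 0.00300). All 3 had groups that did not overlap, and all 3 calls held under each of the 16 alternatives. H2ac18 has a near-identical neighbour, H2ac19, which has no probe of its own in the annotation used, so the H2ac18 signal may hold transcripts of both.

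The H2A genes of chromosome 13 had differences from -0.65 to -0.01, of which 1 was called. H2ac12 read 6.23, 6.19 and 6.52 on the control arrays and 5.66, 5.51 and 5.81 on the knockout arrays, with no overlap (-0.65 ± 0.15 SE, 1.57-fold lower, limma, adjusted p = 0.0364). That call held without control replicate 1 (adjusted p = 0.0444) and was lost without any other single array, with adjusted p from 0.0552 to 0.138. H2ac15 read 6.53, 6.28 and 6.88 on the control arrays and 6.18, 5.69 and 6.01 on the knockout arrays, also with no overlap, and was not called (-0.61 ± 0.18 SE, adjusted p = 0.0923). It was called lower under 1 alternative, the trended robust prior. H2ac24 read 9.26, 8.47 and 9.33 on the control arrays and 8.86, 8.03 and 8.37 on the knockout arrays, where the groups overlapped (-0.60 ± 0.25 SE, adjusted p = 0.210).

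For H2ac22, H2ac7 and H2ac10 the differences were -0.58, -0.58 and -0.43, with adjusted p of 0.196, 0.224 and 0.307 (limma) and overlapping groups. H2ac22 read 6.26, 6.12 and 7.08 on the control arrays and 6.20, 5.67 and 5.83 on the knockout arrays. H2ac7 read 5.84, 6.08 and 6.71 on the control arrays and 6.12, 5.54 and 5.24 on the knockout arrays. In both, control array 3 was the highest. H2ac10 read 6.82, 6.79 and 7.45 on the control arrays and 6.87, 6.15 and 6.75 on the knockout arrays. H2ac11 stayed near the lowest detected signal in both groups, with a mean of 4.58 ± 0.06 in the controls and 4.56 ± 0.26 in the knockouts (SD, n = 3 each).

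Most of the 7 H2A probes of chromosome 13 shared their highest and lowest arrays. Control array 3 was the highest array for 6 of the 7 genes, and knockout array 2 was the lowest for 5 and knockout array 3 for the other 2. The exception at the top was H2ac11, near the lowest detected signal, which was highest on knockout array 2 at 4.76. The H2A class median was -0.50 with all arrays, -0.25 without control replicate 3 and -0.31 without knockout replicate 2. H2A coding sequences are near-identical, so a probe can bind transcripts of several genes and these 7 differences may not be separate measurements. How far the probes bind each other's transcripts was not tested.

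**Figure D3:**
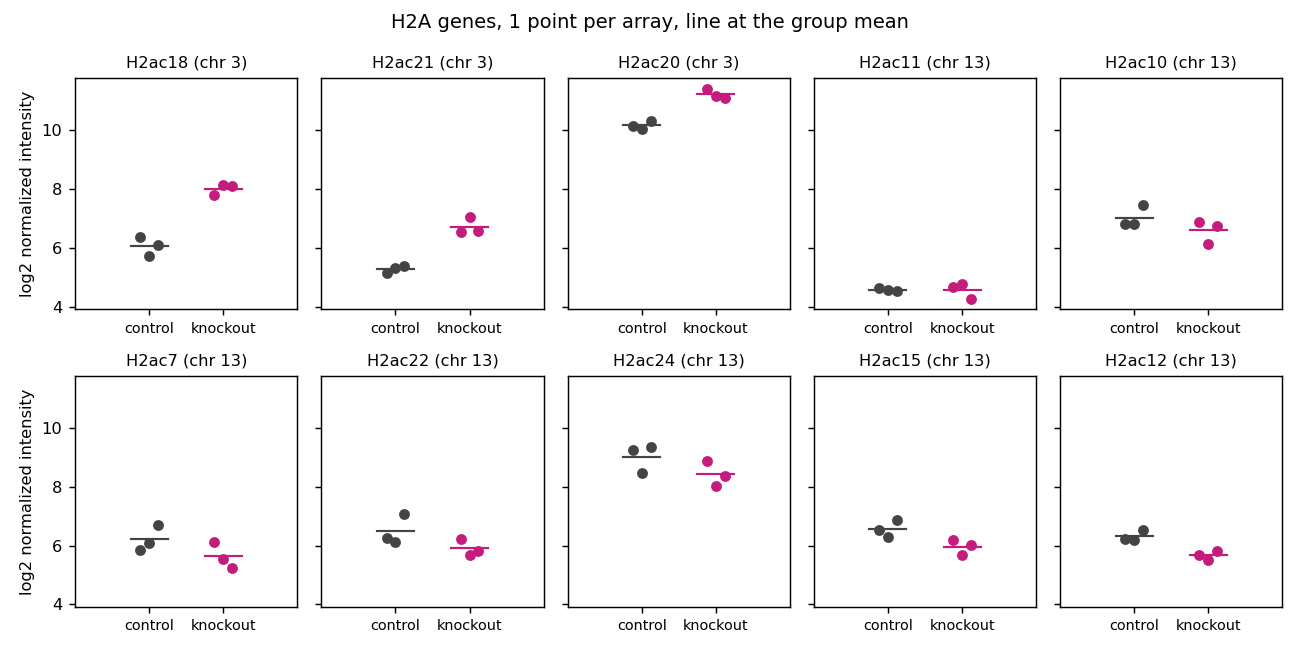
Log2 normalized intensity (vertical axis) of the 10 tested H2A genes, 1 point per array, with a line at the mean of each group of 3. The knockout points of H2ac18, H2ac21 and H2ac20 lie above all control points, those of H2ac15 and H2ac12 lie below all control points, and the groups of the other 5 genes overlap.

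Within the 4 pairs that share a promoter, the H2B gene rose and the H2A gene did not. This direction was not particular to the pairs. Outside them, the H2B genes tested on chromosome 13 had differences from 0.58 to 0.93 and the H2A genes from -0.60 to -0.43. The difference in the H2B gene minus that in its H2A partner was 1.63 for H2bc7 and H2ac7, 1.61 for H2bc12 and H2ac12, 1.13 for H2bc15 and H2ac15, and 0.88 for H2bc11 and H2ac11. Relative to the control mean, H2B minus H2A ran from 1.36 to 1.74 on the knockout arrays and from -0.19 to 0.19 on the control arrays for H2bc12 and H2ac12. For H2bc7 and H2ac7 it ran from 1.09 to 1.97 and from -0.51 to 0.49. The corresponding ranges were 0.89 to 1.43 and -0.35 to 0.32 for H2bc15 and H2ac15, and 0.58 to 1.22 and -0.13 to 0.11 for H2bc11 and H2ac11. In all 4 pairs the knockout arrays lay above the control arrays. A 2-sided exact permutation test gave p = 0.1 for each pair, also after Benjamini-Hochberg adjustment over the 4, which is the smallest p that 3 against 3 allows. H2ac11 lies near the detection limit, where a fall would not show.

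**Figure D4:**
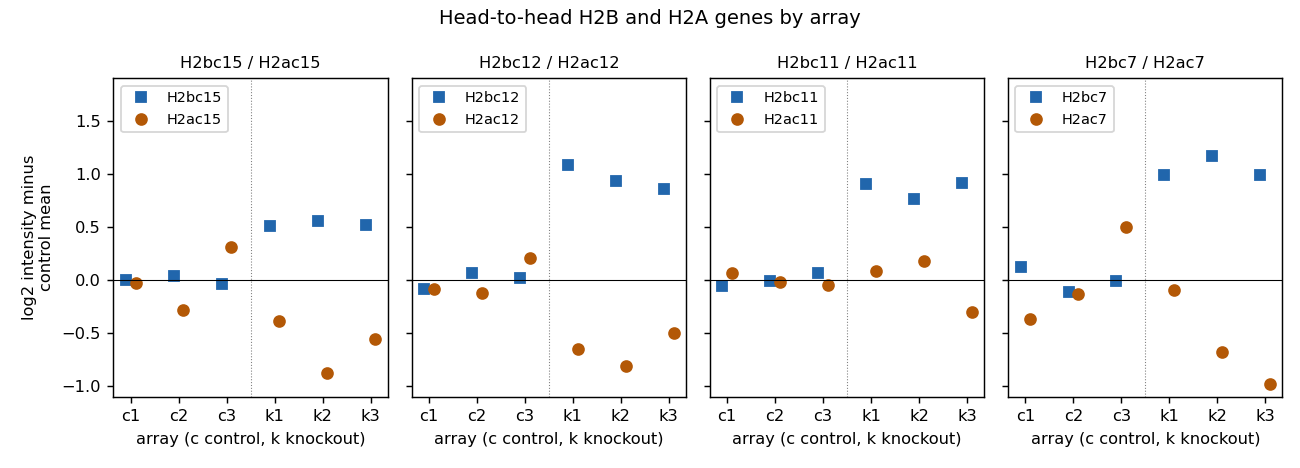
Log2 intensity minus the control mean (vertical axis) on the 6 arrays for the 4 pairs of H2B (squares) and H2A (circles) genes with a shared promoter. On the knockout arrays the H2B squares lie from 0.5 upward and the H2A circles lie below them in every pair.

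By gene cluster, the 6 genes of chromosome 3 had a median log2 difference of 1.10, with 5 that rose. Chromosome 13 holds 2 stretches of histone genes more than 1 Mb apart. The first had 13 genes tested, of which 7 rose and 1 fell, with a median of 0.70, and the second had 10 without H3c7, of which 6 rose, with a median of 0.91. Within chromosome 13 the class medians were 0.90 for the 8 H2B genes, 1.53 for the 2 H3 genes detected in both groups and 1.17 for the 6 H4 genes, against -0.58 for the 7 H2A genes. The differences between classes and between clusters were not tested.

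Motifs of histone promoters were counted in RefSeq windows. For 27 of the 30 genes 1 RefSeq window was used, either the only one or the one at the start of the gene. The 250 bases before each start were searched on both strands for the 3 motifs, none of which contains another. The windows of all genes, used for comparison, were not reduced to 1 per gene. H2bc4, H2bc6 and H3c7 are not among the 27. CCAAT, the core of the CCAAT box bound by NF-Y, was present in all 10 H2A and all 7 H2B windows, in 3 of 4 H3 windows and in 1 of 6 H4 windows, against 33.8% of 32851 promoter windows. ATGCAAAT, the octamer bound by Oct-1 and a known element of H2B promoters, was in 3 of 7 H2B and 2 of 10 H2A windows and in none of the H3 or H4 windows, against 1.60% of all. TATAAA, the letters of the TATA box, was in 10 of 27, against 12.4% of all. The 3 H2B windows among these, of H2bc7, H2bc12 and H2bc15, have no TATAAA between the paired starts. Their matches lie from the start of the H2A partner onward, so they are not in the shared promoter stretch. Among H2A genes TATAAA was in 2 of 3 windows on chromosome 3 and in 1 of 7 on chromosome 13. The windows of the 4 tested pairs overlap, so the same match can be counted for both genes of a pair. In the H2ac12 and H2bc12 stretch printed above, the octamer and CCAAT lie between genes of which one fell and the other rose, and that octamer is counted for both.

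The 15 histone genes on the array that were not detected were 4 each of H2A, H3 and H4 and 3 of H2B. Of the 19 undetected probes, 14 were detected on no array. With no detection filter, 45 histone genes were tested, and 15 rose and none fell, where 142 of 16593 genes were called in all.

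Of 19 tested genes of histone message 3-prime processing, cap binding and decay, Cstf3, a subunit of the cleavage stimulation factor, rose (0.72 ± 0.13 SE, limma, adjusted p = 0.0126) and none fell. That is 5.26% of the list, near the 4.25% of all genes called, and the list's median was 0.01, as over all genes. Ncbp1, the large cap-binding subunit, had a difference of 0.41 (adjusted p = 0.129) and Upf1, a helicase that takes part in histone message decay, of -0.38 (adjusted p = 0.154). Slbp, the stem-loop binding protein gene, was on the array and not detected. Of 6 NELF and DSIF genes, Nelfb alone fell.

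Replacement variants are histones many of which are made outside S phase from polyadenylated messages. Of 7 tested, H2az1 (0.81 ± 0.16 SE, limma, adjusted p = 0.0176) and H3f3b (0.73 ± 0.16 SE, adjusted p = 0.0314) rose and none fell. That is 28.6% of a short list, where 2.24% of all genes rose, and its median was 0.30. H3f3b encodes H3.3. Of the replication-dependent linker histones, H1f2 read 10.94, 10.63 and 10.85 on the control arrays and 11.32, 11.35 and 11.26 on the knockout arrays, with no overlap and no call (0.50 ± 0.14 SE, adjusted p = 0.0689). H1f5 had 0.14 (adjusted p = 0.626).

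Markers of dividing cells gave no calls. Of 33 S phase and proliferation genes listed, 27 were on the array and 12 were detected. None was called, where 4.25% of all genes tested were called, and a list this short can hold no call at that share. The median was -0.25, and 3 of the 12 differences were positive. The groups did not overlap for 4 of the 12, against 24.9% of all genes. Prc1, needed for cell division, had -0.57 (limma, adjusted p = 0.132) and the replication licensing gene Cdt1 -0.32 (adjusted p = 0.219). Pcna, Ccna2, Cdk1 and Top2a, whose products act in S phase or mitosis, were on the array and not detected.

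Marker lists of heart cell types gave 1 call, where 4.25% of all genes tested were called. Cardiomyocyte markers were detected for 6 of 8 genes and none was called. Their summed linear signals were 74355 to 77366 in the controls and 73578 to 82169 in the knockouts. Most of each sum came from Myh6, Actc1 and Myl2, among the brightest genes. Quantile normalization gives all arrays the same set of top values, so these sums could differ little between arrays. Among the other members, Tnni3 had -1.05 (limma, adjusted p = 0.0948) with overlapping groups. Actn2 had 0.40 (adjusted p = 0.104) with no overlap, and Pln had -0.22. Of the smooth muscle and pericyte list, 5 of 5 genes were detected and Acta2 fell (-0.84 ± 0.18 SE, limma, adjusted p = 0.0299). The other 4 were not called, at 0.25 for Rgs5, 0.13 for Pdgfrb, 0.01 for Myh11 and -0.10 for Tagln, and the list's median was 0.01. The summed signal, most of it from Acta2, was 2865 to 3641 in the controls and 1681 to 2319 in the knockouts. Erythroid markers, 3 of 5 detected, summed to 1584 to 10256 in the controls and 5952 to 16694 in the knockouts, with control array 3 the lowest. The part of smooth muscle, blood or other cells in the histone differences was not tested. Leukocyte (3 of 8 detected, 277 to 324 and 300 to 404), endothelial (6 of 6, 2865 to 3766 and 2890 to 3218) and fibroblast markers (7 of 7, 4027 to 4734 and 4434 to 4666) had overlapping sums and no calls. Ptprc, Cd3e and Cd79a, defining leukocyte genes, were not detected.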

How the data were processed

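Heart RNA of 3 control and 3 knockout mice was measured on 6 Illumina arrays. The authors deposited intensity values that were not normalized, with a detection p-value for each, per the file headers, and a value table of normalized intensity on a linear scale whose method none of the sources states; GenomeStudio is the tool in the submitters' processing notes. Each unnormalized array was tied to a sample record by its rank order over all probes, with Spearman's rho of 1.00 to 1 column of the value table and no more than 0.854 to any other. All 6 matches kept the replicate number and exchanged the group; the assignment was chosen once the tables had been read.

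The neqc function of limma 3.58.1 in R 4.3.3 corrected background (offset 16), normalized by quantiles and gave log2 values. The brightest detected probe stood for its gene. Knockout was compared with control with lmFit and eBayes over 7579 genes, 2-sided, with calls where p adjusted by Benjamini-Hochberg was under 0.05 (322 genes, 4.25%). A called gene is said to have risen or fallen. SE is limma's moderated standard error, and the arrays' number limits precision. A gene with no detected array in a group has only a bound: the fold against that group's mean, each value raised to the lowest detected signal of its array. Pairs of genes were compared with exact permutation tests (scipy 1.17.1 in Python 3.11.15), and figures were drawn with matplotlib 3.10.9.

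All 50 histone probes matched RefSeq genes by identifier and accession, and promoter sequences are those of RefSeq on GRCm38.p6, matched for 27 tested genes. Gene positions serve only to group neighbours, with a gap above 1 Mb starting a new stretch. The rule for named genes covered every detected histone gene, all H2A genes with their values, and for other lists the called members and those with the smallest p. The members and lists were chosen with earlier results of these data known. Alternatives were no background correction, the value table, median scaling, a larger offset, no or a stricter detection filter, single probes, the mean of probes, a trended robust prior, the replicate number as a block, and each array left out.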

Additional observations from a re-analysis of the deposited data

How the results depend on the processing

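The count of 322 genes called in all was 554 with no background correction, 589 in the value table, 54 with median scaling, 558 with the offset at 50, 142 when undetected genes were kept, 645 with a trended robust prior, and 100 to 401 with 1 array left out. The medians and counts here include H3c7. The count of histone genes that rose was 19 with all arrays, 9 with median scaling and 15 to 18 with 1 array left out. The count of histone genes that fell was 1 with all arrays (H2ac12), 0 with median scaling, 0 with no detection filter and 0 to 1 with 1 array left out. It was 2 with the trended robust prior, where H2ac15 was called beside H2ac12. Class medians with no background correction were -0.23 (H2A), 0.62 (H2B), 0.70 (H3) and 0.62 (H4). In the value table they were -0.29 (H2A), 0.64 (H2B), 0.70 (H3) and 0.72 (H4), with the offset at 50 they were -0.35, 0.78, 0.83 and 0.88 in the same order, and with no detection filter -0.23 (H2A), 0.72 (H2B), 0.66 (H3) and 0.46 (H4). With 1 array left out they ran from -0.61 to -0.25 (H2A), 0.84 to 0.92 (H2B), 0.88 to 1.28 (H3) and 0.95 to 1.27 (H4). The causes were not tested. The signs that turned were those of H2ac11 (-0.11 to 0.13) and H2bc18 (-0.027 to 0.20) with 1 array left out.

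Same-numbered control and knockout arrays did not deviate together (r over genes from -0.06 to -0.00036), so the numbers were not taken as pairs. With the number as a block, 171 genes were called, 17 histone genes rose and 0 fell. The pair differences kept their sign in all alternatives, with H2bc12 minus H2ac12 from 0.92 to 1.74.

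Signal over background limits the dimmest members: H2ac11, H3c7 and H4c3 lay near the lowest detected signal.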

Other observations

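Genes that carry or fold histones and those that add poly(A) tails showed no calls, where 4.25% of all genes tested were called. Lists this short can hold no call at that share. Of 8 tested histone chaperone genes none was called (limma), and the median log2 difference was 0.06. Rbbp7, a histone-binding subunit of chromatin complexes, had 0.69 (adjusted p = 0.118) and Nasp, a carrier of free H3 and H4, had 0.36 (adjusted p = 0.217). Of 8 genes of nuclear polyadenylation none was called, with a median of -0.08; Pabpn1, the nuclear poly(A)-binding protein gene, had 0.47 (adjusted p = 0.0980). Of 10 genes listed for histone gene transcription 3 were detected, and Cdk2 (-0.33) and E2f1 (-0.22) were not called.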
